A study of Triticum aestivum and Aegilops tauschii and Triticum carthlicum with 18 samples.

Results

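The measurements below are those of 9 probe sets of the Affymetrix wheat array that carry the gene symbol LOC100049018, whose synonym is rbcl, the name of the large subunit of Rubisco. They were listed by their names, with earlier results of these data known, out of 61179 probe sets that are not controls. The array annotation gives the same symbol to 28 probe sets in all, and the other 19 are described only where they differ from or resemble the 9. The 9 are Ta.24976.1.S1_x_at, TaAffx.128414.1.A1_x_at, TaAffx.128414.130.S1_at, TaAffx.128414.146.S1_at, Ta.3807.1.A1_at, TaAffx.128414.15.S1_x_at, TaAffx.128414.15.S1_at, TaAffx.128414.126.S1_at and Ta.14567.2.S1_at.

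Rubisco is the enzyme that fixes carbon dioxide in the Calvin cycle and is among the most abundant proteins of a leaf. It is built from large subunits, which carry the active site and are encoded by rbcL in the chloroplast genome, and from small subunits, which are encoded in the nucleus. In wheat and its relatives the chloroplast passes through the mother. In the RefSeq annotation of the assembly IWGSC CS RefSeq 2.1, however, the entry LOC100049018 is a protein-coding gene on a nuclear chromosome, so whether a given probe set read a chloroplast transcript, a copy in the nucleus or a related sequence cannot be told from these files.

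The study followed gene expression in new allohexaploid wheat, with 18 arrays in 9 groups of 2, all from the second leaf of seedlings with 3 leaves. The tetraploid parents were Triticum turgidum ssp. durum (TTR04) and T. turgidum ssp. carthlicum (TTH01), and the diploid parent was the goat-grass Aegilops tauschii (TQ27). TTR04 was the mother and TQ27 the father of Allo-AT5, and TTH01 the mother and TQ27 the father of Allo-AT9. Genomes of both hybrids had been doubled with colchicine, and each line was sampled at the selfed generations S4 and S5. MPV5 and MPV9 are mixtures of parental RNA, with 2 parts from TTR04 or TTH01 and 1 part from TQ27, and served as measured mid-parent values. No group received a treatment, all plants grew in days of 12 h, at 22 °C in the light and 20 °C in the dark, and each array of a line or parent stood for a pool of 10 plants. Each allohexaploid is 1 line from 1 cross, so that line and cross cannot be told apart.

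Levels are log2 values after RMA, the normalization the authors used. A probe set was counted as detected where the 2 arrays of a group were both at 4.54 or higher. A difference between groups was called when it had an adjusted p under 0.05 in a limma fit to all 18 arrays, with Benjamini-Hochberg adjustment over the 61179 probe sets, and when either group compared had the probe set detected. The array medians lay between 4.00 and 4.11, and a difference between 2 groups had a median SE of 0.28 over all probe sets. TQ27 replicate 2 stood apart in the 18S rRNA control, with 11.41 against 5.04 to 7.79 on the other arrays. The BioC spike-in controls fell into 2 bands, 8.77 to 9.66 on 8 arrays and 5.67 to 7.28 on 10, with an array of each band in every group except Allo-AT5 S5. The 2 arrays of Allo-AT5 S5 also lay closer together than those of any other group, with an SD of the replicate difference of 0.24 over the 29674 detected probe sets against 0.64 to 1.08 elsewhere. Of 5 probe sets of the leaf genes OEE1, OEE2 and petC, 4 were detected in all 9 groups, while of 11 probe sets of seed storage proteins 1 was detected in all groups, 1 in 1 group and 9 in none.

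Of the 9 rbcl probe sets, 5 were detected in at least 1 group and 4 in none. Detected in all 9 groups were Ta.24976.1.S1_x_at, TaAffx.128414.1.A1_x_at, TaAffx.128414.130.S1_at and TaAffx.128414.146.S1_at. Ta.3807.1.A1_at was detected in TQ27 and in no other group. The probe sets thus fell into 3 kinds on these arrays, those read in every group, the one read in the diploid parent, and those detected in no group. Levels of different probe sets are not set against each other here, since they depend on the probes as well as on the transcript.

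**Figure D1:**
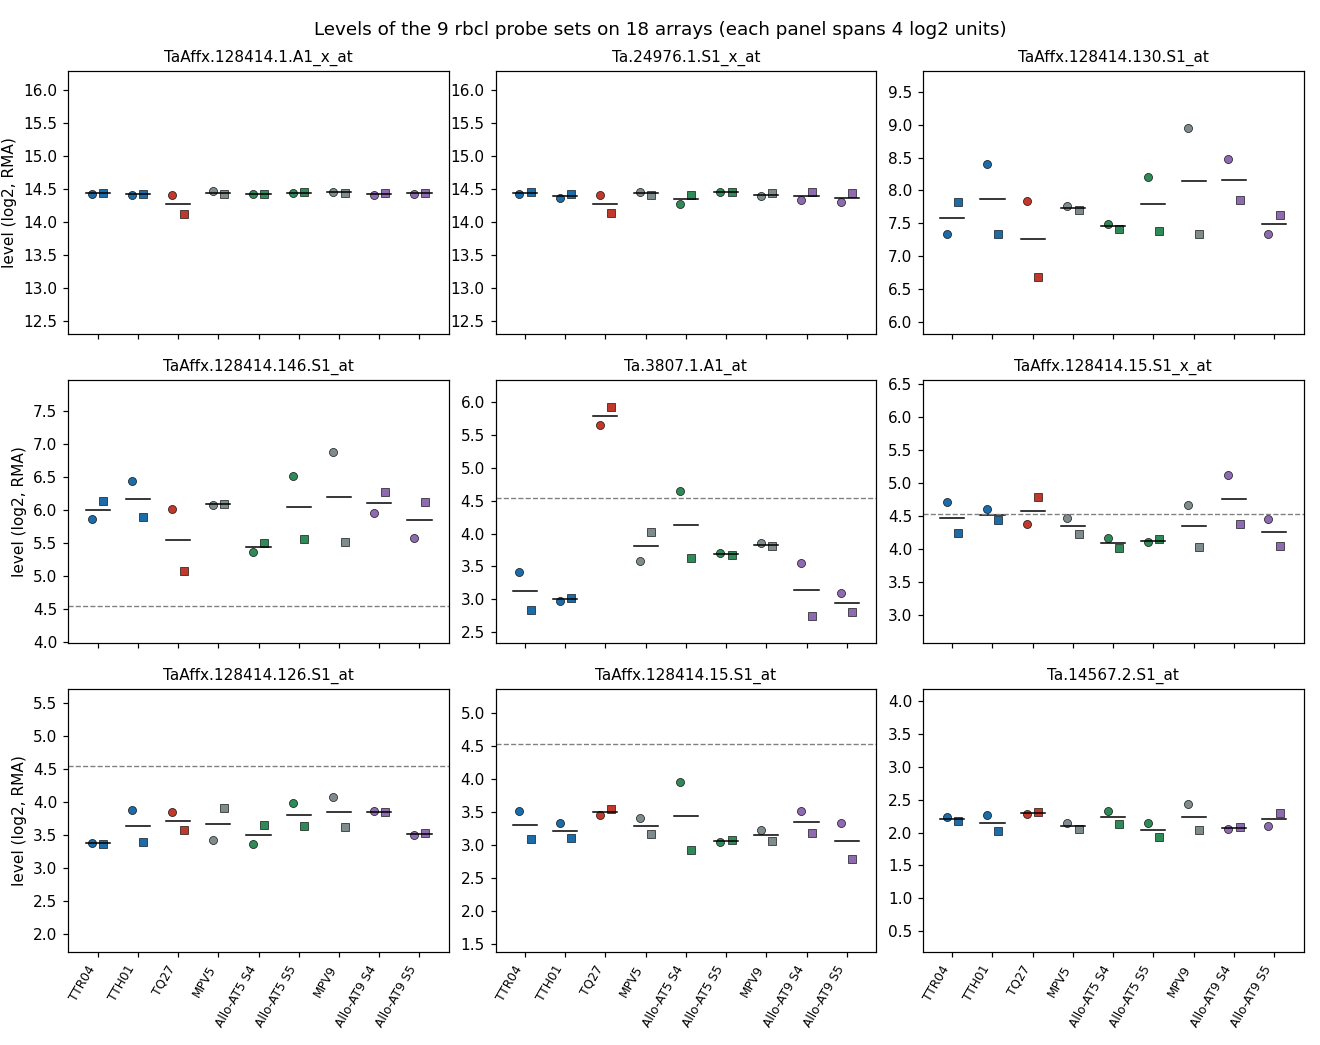
Level (log2, RMA) of each of the 9 rbcl probe sets on the 18 arrays, by group, with circles for replicate 1, squares for replicate 2, short lines for the mean of 2 arrays and a dashed line at the detection level of 4.54 where it falls in the panel. Every panel spans 4 log2 units, and only Ta.3807.1.A1_at shows a group, TQ27, whose arrays lie above all others.

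Ta.3807.1.A1_at was the probe set with a difference between groups. Its levels in TQ27 were 5.65 and 5.92, the highest of all 18 arrays. In the tetraploid parents it gave 3.41 and 2.84 in TTR04 and 2.98 and 3.02 in TTH01. Both arrays of each tetraploid thus lay below the detection level, and none overlapped with TQ27. In Allo-AT5 S4 the levels were 4.64 and 3.63, and 3.71 and 3.68 a generation later. The S4 arrays of Allo-AT9 gave 3.55 and 2.75 and its S5 arrays gave 3.09 and 2.80. The 2 generations of each line thus overlapped. The mixtures gave 3.59 and 4.03 in MPV5 and 3.85 and 3.81 in MPV9. Of the 16 arrays outside TQ27, replicate 1 of Allo-AT5 S4 was the only one to reach the detection level, and it remained below both TQ27 arrays.

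**Figure D2:**
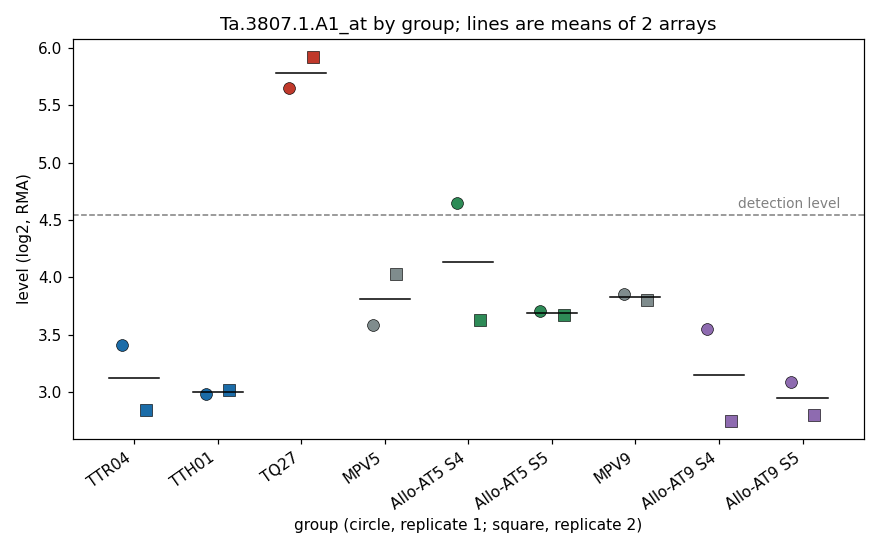
Level (log2, RMA) of Ta.3807.1.A1_at by group, with circles for replicate 1, squares for replicate 2, lines for the mean of 2 arrays and a dashed line at the detection level of 4.54. TQ27 stands at 5.65 and 5.92, and the other 16 arrays lie between 2.75 and 4.64.

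Ordered by the mean of 2 arrays, Ta.3807.1.A1_at stood at 5.78 in TQ27, 4.14 in Allo-AT5 S4, 3.83 in MPV9, 3.81 in MPV5, 3.69 in Allo-AT5 S5, 3.15 in Allo-AT9 S4, 3.13 in TTR04, 3.00 in TTH01 and 2.95 in Allo-AT9 S5. The pooled SD between the 2 arrays of a group was 0.36. The steps from TQ27 to Allo-AT5 S4 and from Allo-AT5 S5 to Allo-AT9 S4 were larger than this spread, and the other neighbours in the order did not differ beyond it. The second of these steps lay between groups below the detection level and was not a comparison of the design.

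Between the parents, TTR04 minus TQ27 was -2.66 on the log2 scale for Ta.3807.1.A1_at (SE 0.34, adjusted p = 9.91e-05, limma). Of all probe sets detected in this comparison, 35.1% were called. TTH01 minus TQ27 was -2.78 (SE 0.34, adjusted p = 6.55e-05), where 34.5% of all detected probe sets were called. In both comparisons 1 of the 5 detected rbcl probe sets was called, a share that does not set the rbcl probe sets above the background of either comparison. Since both tetraploids were below the detection level, only the distance of TQ27 from that level is a bound, by which TQ27 was at least 2.37-fold higher than TTR04 and than TTH01.

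The lines also lay below TQ27 in Ta.3807.1.A1_at. Allo-AT5 S4 minus TQ27 was -1.65 (SE 0.34, 95% interval -2.39 to -0.91, adjusted p = 0.00703), the smallest of the 8 group differences, with 20.7% of all detected probe sets called. Without Allo-AT5 S4 replicate 2 it was -1.14 with an adjusted p of 0.0758, and without TQ27 replicate 2 it was -1.51 with an adjusted p of 0.0667, so this call rested on single arrays. Allo-AT5 S5 minus TQ27 was -2.09 (SE 0.34, adjusted p = 0.00141), with 21.5% of all called. Allo-AT9 S4 minus TQ27 was -2.63 (SE 0.34, adjusted p = 0.00022) and Allo-AT9 S5 minus TQ27 was -2.83 (SE 0.34, adjusted p = 0.00013), with 23.4% and 22.2% of all called. TQ27 was at least 2.37-fold higher than Allo-AT5 S5, Allo-AT9 S4 and Allo-AT9 S5, which were below the detection level on both arrays. The mean of the 6 groups with a T. turgidum mother, TTR04, TTH01 and the 4 line groups, minus TQ27 was -2.44 (SE 0.26, adjusted p = 2.08e-05), beside 36.4% of all detected probe sets called. All arrays of these groups lay below both TQ27 arrays. The 9 comparisons share the TQ27 arrays.

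**Figure D3:**
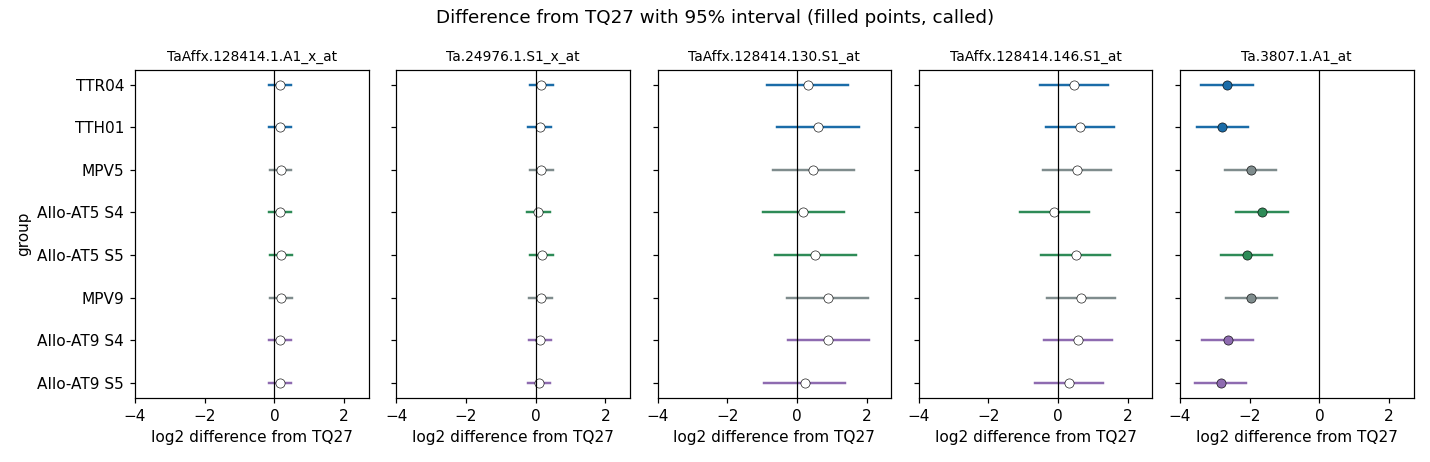
Log2 difference from TQ27 for the 5 detected rbcl probe sets (panels) and the 8 other groups (rows), with bars for the 95% interval of the fit and filled points for called differences. All 8 points of Ta.3807.1.A1_at lie between -2.83 and -1.65 and are filled, while the intervals of the other 4 probe sets include 0.

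The mixtures, in which 1 of 3 parts was RNA of TQ27, were lower than TQ27 in Ta.3807.1.A1_at as well. MPV5 minus TQ27 was -1.98 (SE 0.34, adjusted p = 0.00267), with 17.7% of all called, and MPV9 minus TQ27 was -1.95 (SE 0.34, adjusted p = 0.00213), with 22.9% of all called. From the parental means on the linear scale, 2 parts of tetraploid and 1 part of TQ27 would give 4.60 in MPV5 and 4.57 in MPV9, while the measured means were 3.81 and 3.83. Measured minus computed was -0.79 in MPV5 and -0.74 in MPV9, on the log2 scale. Over all detected probe sets the median of this difference was -0.13 in MPV5 and -0.12 in MPV9. The computed values lie close to the detection level of 4.54 and the tetraploid values enter them from below it, and how RMA values near this level follow the amount of RNA was not tested.

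**Figure D4:**
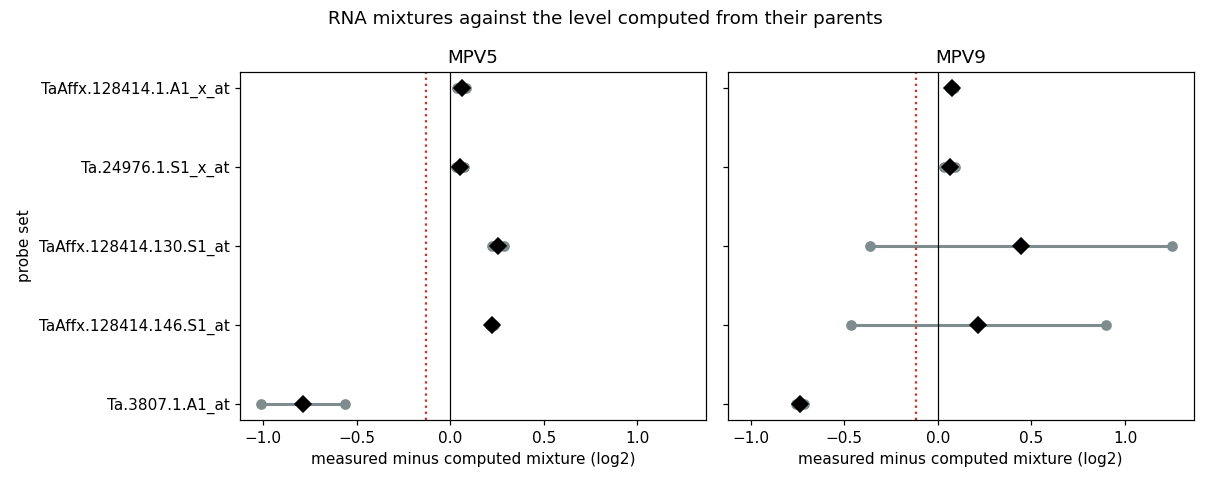
Measured minus computed level (log2) of the 5 detected rbcl probe sets in the mixtures MPV5 and MPV9, with diamonds for the mean, grey points for the 2 arrays, a line at 0 and a dotted line for the median over all detected probe sets. Ta.3807.1.A1_at lies at -0.79 and -0.74, and the means of the other 4 lie above 0.

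Outside the comparisons with TQ27, no rbcl probe set was called. TTR04 minus TTH01 was 0.13 (SE 0.34) for Ta.3807.1.A1_at, with 2.96% of all detected probe sets called between the tetraploids. Both tetraploids were below the detection level, so no fold is given between them. Both arrays of Allo-AT5 S4 (4.64 and 3.63) lay above those of TTR04 and of Allo-AT9 S4, but Allo-AT5 S4 was not detected on both arrays. Over the 19 comparisons without TQ27 the unadjusted p of Ta.3807.1.A1_at was under 0.05 in 6, none of them with a detected group, and its lowest adjusted p was 0.245, in Allo-AT5 S4 minus TTR04.

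The probe set called against TQ27 did not share its pattern with the 4 probe sets detected in every group. Ta.24976.1.S1_x_at and TaAffx.128414.1.A1_x_at lay at the upper end of the scale on every array. The suffix _x_at marks probe sets of which some probes can bind other sequences too. Ta.24976.1.S1_x_at gave 14.42 and 14.45 in TTR04, 14.36 and 14.42 in TTH01, and 14.41 and 14.13 in TQ27. In the lines it gave 14.27 and 14.41 in Allo-AT5 S4, 14.45 on both arrays of Allo-AT5 S5, 14.34 and 14.45 in Allo-AT9 S4, and 14.30 and 14.43 in Allo-AT9 S5. In the mixtures it gave 14.45 and 14.41 in MPV5, and 14.39 and 14.44 in MPV9. TQ27 replicate 2 was the lowest array and the group means spanned 0.18, against a pooled SD within groups of 0.087.

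TaAffx.128414.1.A1_x_at had group means that spanned 0.18 as well, with a pooled SD within groups of 0.070. It gave 14.43 and 14.44 in TTR04, 14.41 and 14.43 in TTH01, and 14.41 and 14.12 in TQ27. Its range over the 16 arrays outside TQ27 was 14.40 to 14.46, with a median of 14.43. TQ27 replicate 2 was again the lowest, and TQ27 replicate 1 lay inside the range of the others. The highest value of any probe set ran from 14.23 to 14.46 over the arrays, so both probe sets stood at the ceiling of the measured range, and whether a change in transcript would still move them was not tested. Their 9 differences from TQ27 were positive for both, from 0.07 to 0.18 for Ta.24976.1.S1_x_at and from 0.15 to 0.18 for TaAffx.128414.1.A1_x_at, and none was called. Without TQ27 replicate 2, TTR04 minus TQ27 was 0.02 for Ta.24976.1.S1_x_at and 0.02 for TaAffx.128414.1.A1_x_at.

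TaAffx.128414.130.S1_at and TaAffx.128414.146.S1_at were read at middle levels and varied more between arrays. TaAffx.128414.130.S1_at gave 7.34 and 7.82 in TTR04, 8.41 and 7.34 in TTH01, and 7.84 and 6.69 in TQ27. In the mixtures it gave 7.77 and 7.70 in MPV5 and 8.95 and 7.34 in MPV9. The parents thus overlapped with each other. Allo-AT5 gave 7.49 and 7.42 at S4 followed by 8.20 and 7.39 at S5, and Allo-AT9 gave 8.47 and 7.86 at S4 followed by 7.34 and 7.63 at S5. The highest array was MPV9 replicate 1 and the lowest TQ27 replicate 2. The group means spanned 0.90, less than the distance between the 2 arrays of MPV9, and the pooled SD within groups was 0.60.

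TaAffx.128414.146.S1_at gave 5.86 and 6.14 in TTR04, 6.43 and 5.90 in TTH01, and 6.01 and 5.07 in TQ27. In the mixtures it gave 6.07 and 6.09 in MPV5 and 6.88 and 5.52 in MPV9. Allo-AT5 gave 5.36 and 5.50 at S4 followed by 6.51 and 5.56 at S5, and Allo-AT9 gave 5.95 and 6.28 at S4 followed by 5.57 and 6.13 at S5. The highest and lowest arrays were those of TaAffx.128414.130.S1_at, MPV9 replicate 1 and TQ27 replicate 2. Group means spanned 0.77 with a pooled SD within groups of 0.50, and the arrays of Allo-AT5 S4 lay below those of every group but TQ27 without overlap, a pattern picked out after the values were seen and not called in any comparison.

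The differences of these probe sets from TQ27 were not resolved by 2 arrays a group. For TaAffx.128414.130.S1_at they ran from 0.19 in Allo-AT5 S4 to 0.90 in Allo-AT9 S4, all positive, with 95% intervals that reached from -0.98 to 2.07. For TaAffx.128414.146.S1_at they ran from -0.11 in Allo-AT5 S4 to 0.66 in MPV9, with intervals from -1.09 to 1.64. Without TQ27 replicate 2, TTR04 minus TQ27 turned from 0.31 to -0.27 for TaAffx.128414.130.S1_at and from 0.46 to -0.01 for TaAffx.128414.146.S1_at. The direction against TTR04 thus rested on 1 array. In this comparison the interval of the full fit was -0.85 to 1.48 for TaAffx.128414.130.S1_at and -0.52 to 1.44 for TaAffx.128414.146.S1_at, so both directions remained within it.

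TaAffx.128414.130.S1_at and TaAffx.128414.146.S1_at moved together over the 18 arrays, with a Pearson's r of 0.86 and a Spearman's rho of 0.80. The points share the arrays, and so anything that raises or lowers a whole array, and the names of the probe sets share the stem TaAffx.128414. Ta.24976.1.S1_x_at and TaAffx.128414.1.A1_x_at gave an r of 0.82 and a rho of 0.74. With Ta.3807.1.A1_at the other 4 gave an r of -0.64 to -0.28, and in each of these pairs TQ27 replicate 2 was at an end of both scales.

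**Figure D5:**
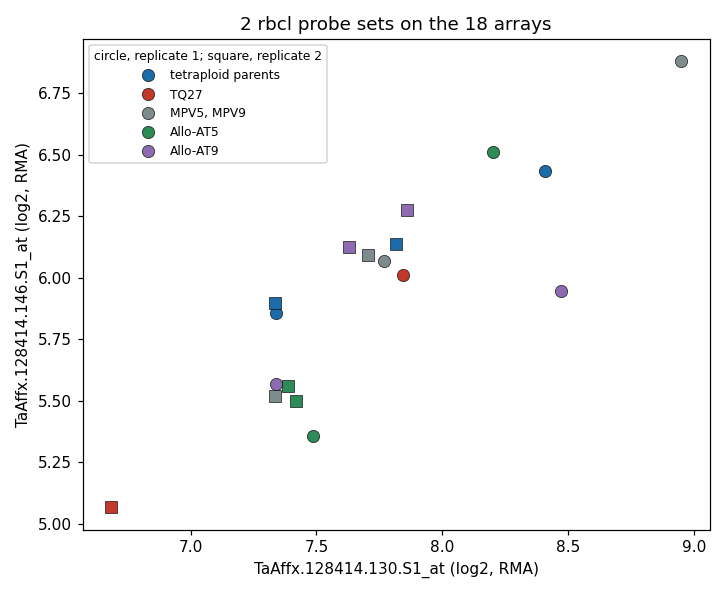
Level (log2, RMA) of TaAffx.128414.146.S1_at against that of TaAffx.128414.130.S1_at on the 18 arrays, coloured by parent, mixture or line, with circles for replicate 1 and squares for replicate 2. TQ27 replicate 2 lies at the lower left (6.69, 5.07) and MPV9 replicate 1 at the upper right (8.95, 6.88), and arrays of 1 group are often far apart.

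TQ27 replicate 2, the array with the high 18S rRNA control, was the lowest of 18 arrays for 4 of the 5 detected rbcl probe sets, while it was the lowest for 15.9% of all detected probe sets. For Ta.3807.1.A1_at it was the highest, at 5.92 beside 5.65 on TQ27 replicate 1. Among the 6 detected of the other 19 probe sets with the symbol, it was the lowest for 3. Among the 7 detected probe sets of nuclear photosynthesis genes, it was the lowest for 1. What part the 18S rRNA signal had in these low values was not tested.

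The spike-in band went with the levels in a direction that differed between probe sets. Ta.3807.1.A1_at was higher on the array of the high band in 6 of 8 groups that hold both bands, TaAffx.128414.130.S1_at in 5, TaAffx.128414.1.A1_x_at in 3, TaAffx.128414.146.S1_at in 2 and Ta.24976.1.S1_x_at in 1. Within the high band Ta.3807.1.A1_at stood at 5.92 in TQ27 against 2.98 to 4.64 in the other groups. Within the low band it stood at 5.65 against 2.75 to 4.03. Each band holds 1 TQ27 array, so this order follows from both TQ27 arrays being above all others and is no separate test. With the band as a block in the fit, the 9 differences of Ta.3807.1.A1_at from TQ27 were all called, with adjusted p from 6.82e-06 to 0.0024. Within the low band TQ27 replicate 1 was below all other groups for Ta.24976.1.S1_x_at (14.4103 against 14.4136 to 14.4516) and for TaAffx.128414.1.A1_x_at (14.4083 against 14.4159 to 14.4561), by less than the SD within groups of either. For TaAffx.128414.130.S1_at and TaAffx.128414.146.S1_at it lay among the others of that band. The part of the band in these levels was not tested further.

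The lines were next compared with their mixtures, the question being whether an allohexaploid departs from the weighted mean of its parents. No rbcl probe set was called, at the adjusted p or, among detected ones, at an unadjusted p under 0.05. In Allo-AT5 S4 minus MPV5, 0% of the 25479 detected probe sets were called, and 1130 of them had an unadjusted p under 0.05 in limma. The difference was -0.28 (SE 0.53) for TaAffx.128414.130.S1_at and -0.65 (SE 0.45) for TaAffx.128414.146.S1_at. Allo-AT5 S5 minus MPV5 was 0.06 and -0.05 for the same probe sets, with 0.0115% of all called, and the mean of both generations of Allo-AT5 gave -0.11 and -0.35, with 0.0188%. Allo-AT9 S4 minus MPV9 was 0.02 for TaAffx.128414.130.S1_at and -0.09 for TaAffx.128414.146.S1_at, with 0.191% of all called. Allo-AT9 S5 minus MPV9 was -0.66 and -0.35, with 0.179%, and the mean of both generations of Allo-AT9 gave -0.32 and -0.22, with 0.23%. All of these values of TaAffx.128414.130.S1_at and TaAffx.128414.146.S1_at had 95% intervals that include 0. Ta.3807.1.A1_at was detected in neither the lines nor the mixtures, so its values are given without a fold. Allo-AT5 minus MPV5 was 0.33 at S4 and -0.11 at S5. Allo-AT9 minus MPV9 was -0.68 at S4, -0.88 at S5 (95% interval -1.62 to -0.14) and -0.78 for the mean of both (95% interval -1.42 to -0.14). The arrays of Allo-AT9 lay below those of MPV9 without overlap in these comparisons, with unadjusted p of 0.0234 at S5 and 0.021 for the mean in limma and an adjusted p that rounds to 1 in both. For Ta.24976.1.S1_x_at and TaAffx.128414.1.A1_x_at the 6 differences from the mixtures ran from -0.09 to 0.02. With calls this rare among all probe sets, the absence of an rbcl call says little about the 9.

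Against the tetraploid mothers no rbcl probe set was called either. Allo-AT5 S4 minus TTR04 was -0.13 (SE 0.53) for TaAffx.128414.130.S1_at and -0.57 (SE 0.45) for TaAffx.128414.146.S1_at, and Allo-AT5 S5 minus TTR04 was 0.21 and 0.04. Of all detected probe sets 4.68% and 4.19% were called in these comparisons. Allo-AT9 S4 minus TTH01 was 0.29 and -0.05 and Allo-AT9 S5 minus TTH01 was -0.39 and -0.32, with 4.07% and 4.01% of all called. The mixtures did not differ from their tetraploid parts by a call, with TaAffx.128414.130.S1_at at 0.16 in MPV5 minus TTR04 and 0.27 in MPV9 minus TTH01, beside 4.99% and 3.25% of all called. For Ta.24976.1.S1_x_at and TaAffx.128414.1.A1_x_at none of these 6 differences was larger than 0.09 in size.

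Between generations and between lines the rbcl probe sets gave no call. In Allo-AT5, S5 minus S4 was 0.34 (SE 0.53) for TaAffx.128414.130.S1_at and 0.61 (SE 0.45) for TaAffx.128414.146.S1_at. In Allo-AT9 the same differences were -0.68 and -0.26. By limma no probe set at all was called between generations in Allo-AT5 or in Allo-AT9 (0% in each). An unadjusted p under 0.05 was held by 449 of 26196 detected probe sets in Allo-AT5 and 365 of 25561 in Allo-AT9. None of them was an rbcl probe set, which says little with 4 rbcl probe sets detected and such low shares over all. Allo-AT5 minus Allo-AT9 was -0.71 and -0.68 at S4 and 0.31 and 0.19 at S5 for these probe sets, while 1.63% and 1.49% of all were called. The difference between the lines in their departure from the mixture, tested as a contrast of its own, was -0.31 (SE 0.76) at S4 and 0.71 (SE 0.76) at S5 for TaAffx.128414.130.S1_at, with 0.0781% and 0.0661% of all called. The 95% interval at S5 was -0.94 to 2.36, so departures of opposite sign and of like size are both within it.

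The other 4 probe sets were detected in no group, and none of them was called. Ta.14567.2.S1_at ran from 1.93 to 2.43 over the 18 arrays, with a median of 2.15. TaAffx.128414.126.S1_at ran from 3.36 to 4.08 with a median of 3.63, and TaAffx.128414.15.S1_at from 2.78 to 3.96 with a median of 3.21. None of these 3 reached the detection level on any array. TaAffx.128414.15.S1_x_at ran from 4.02 to 5.12 with a median of 4.38, and 5 of its 18 arrays reached the level, namely 1 each of TTR04, TTH01, TQ27, MPV9 and Allo-AT9 S4. No group had both arrays there, so it was not counted as detected, although the means of Allo-AT9 S4 (4.75) and TQ27 (4.59) lay above the level. Its group means spanned 0.66 against a pooled SD within groups of 0.30, and Allo-AT5 S4 minus Allo-AT9 S4 was -0.66 (unadjusted p = 0.0415 and adjusted p = 0.804 in limma). TaAffx.128414.15.S1_at and TaAffx.128414.15.S1_x_at carry the same number in the stem, and both lay within 0.5 of TQ27 in every group difference. No fold is given where both groups were below the level.

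The 19 other probe sets with the symbol gave no call in any of the 28 comparisons, and 6 of them were detected in at least 1 group. Among the 5 of 9 and 6 of 19 probe sets with the symbol that were detected in some group, Ta.3807.1.A1_at was the one called. It was called in all 9 comparisons against TQ27. In the other 19 it could not be called, since it was detected in TQ27 only and a call needs detection in a compared group. Against TQ27 between 17.7% and 36.4% of all detected probe sets were called, so 1 call among these is not more than the background. In TTR04 minus TQ27 the median difference of the other detected ones was 0.10, beside -0.11 over all detected probe sets, and in TTH01 minus TQ27 it was 0.44 beside -0.06. These medians lie on the other side of 0 from Ta.3807.1.A1_at.

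Other genes of photosynthesis were looked up by symbol and synonym. Of the genes encoded in the chloroplast the list matched 1 probe set, of LOC543415, whose synonyms are atpA, hydrolase and IVR1. Only the first of these is the name of a chloroplast gene, for the alpha subunit of the ATP synthase, so the probe set cannot be taken to measure it. Its levels were 1.91 to 2.74, below the detection level on every array. Nuclear genes matched 8 probe sets, of PRK (phosphoribulokinase, which makes the substrate of Rubisco), FBP (fructose-bisphosphatase), OEE1 and OEE2 (proteins of the oxygen-evolving complex) and petC (the Rieske iron-sulphur protein, which passes electrons within cytochrome b6f). Of these, 7 were detected in TTR04 minus TQ27, where 1 was called, as lower, beside 35.1% of all detected probe sets. In TTH01 minus TQ27, 6 were detected and none was called, beside 34.5% of all. No other comparison held a call. Of all detected probe sets, 17.7% to 36.4% were called in the others against TQ27 and 0% to 4.99% in those without TQ27. The counts of these nuclear genes do not exceed those shares. The one called, the petC probe set Ta.861.1.S1_at, gave 12.05 and 12.81 in TTR04 and 13.11 and 13.12 in TQ27. The difference was -0.69 (SE 0.21, adjusted p = 0.0392), and the call was lost without TTR04 replicate 1 (-0.31, adjusted p = 0.34), without TQ27 replicate 1 (adjusted p = 0.105) and without TQ27 replicate 2 (adjusted p = 0.145). In limma it was also lost after cyclic loess (adjusted p = 0.166), after quantile normalization (adjusted p = 0.0514) and in a separate fit of the 2 groups (adjusted p = 0.386). A variance trend over intensity (adjusted p = 0.087) and averaging the Allo-AT5 S5 arrays (adjusted p = 0.0583) lost it too. It was kept with a block for replicate number (adjusted p = 0.0256) or for spike-in band (adjusted p = 0.0219). The 2 other nuclear probe sets with the highest mean levels were those of OEE1 and OEE2, and neither was called.

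Among 845 detected probe sets with another gene symbol, those most like Ta.3807.1.A1_at over the 18 arrays were Ta.13961.1.S1_at of LOC100049053, Ta.22964.1.S1_a_at of LOC543069 and Ta.27974.1.S1_at of LOC542936, with a Pearson's r of 0.90, 0.88 and 0.87. Without the 2 TQ27 arrays r fell to 0.71, 0.68 and 0.54. For Ta.24976.1.S1_x_at the nearest was Ta.6301.1.S1_at of LOC543461 (0.87), and for TaAffx.128414.1.A1_x_at it was Ta.7626.3.S1_at of LOC100037641 (0.95), whose r became 0.33 without TQ27 replicate 2 and MPV5 replicate 1. For TaAffx.128414.130.S1_at and TaAffx.128414.146.S1_at no named probe set reached an r above 0.63, well short of the 0.86 they gave with each other. All of these are descriptions over arrays that share RNA pools and normalization.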

How the data were processed

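The deposited log2 values, 1 per probe set and array, were made by the authors with RMA from 18 arrays, 2 per group, and were used as they are. Versions of the authors' tools are not given in the sources used here, and their MAS5 calls were not used. Of 61290 probe sets 111 are controls. The detection level of 4.54 was set so that about as many probe sets passed as the study counted as expressed, and 29674 did. limma 3.58.1 in R 4.3.3 fitted 9 groups without a covariate (residual df 9, prior df 2.99), tested on simulated data first. Gene symbols come from the platform annotation, where 1273 probe sets carry 1 of 771 symbols. The 9 probe sets, the gene lists, the comparisons and the bound from the detection level were chosen with earlier results of these data known. All 9 are named, list members are given as counts with values for at most 3, and up to 3 nearest probe sets by Pearson's r are named. P-values rest on the spread between the 2 arrays of a group, pooled over the 9 groups and moderated over probe sets. MPV5 and MPV9 are RNA mixtures, whose replicates deviated together with those of their tetraploid parents. The r was 0.85 for MPV5 with TTR04 and 0.74 for MPV9 with TTH01. The main fit did not pair them. The number of arrays limits the precision, and 28 comparisons were made. Alternatives were other detection filters, normalizations, fits, blocks and thresholds, and leaving out each array.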

Additional observations from a re-analysis of the deposited data

How the results depend on the processing

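The count of called rbcl probe sets was the same as reported in 132 of 134 fits without single arrays and in 269 of 280 under other alternatives. In the 19 comparisons without TQ27 it was 0 throughout. Only the 9 against TQ27 had a call to lose. They made up 46 of the 134 fits without single arrays and 9 of the 28 comparisons under each other alternative. All changes fell there, 2 without single arrays and 11 under the other alternatives. The settings without a filter and with unadjusted p could only keep or add calls. With a detection level of 6 the count was 0 in place of 1 in all 9 comparisons against TQ27, since TQ27 then no longer passes. In a separate fit of the 2 groups compared it was 0 for Allo-AT5 S4 minus TQ27 (-1.65, adjusted p = 0.0636) and MPV5 minus TQ27 (-1.98, adjusted p = 0.0511), with the same differences and fewer arrays. Without single arrays the count ranged from 0 to 1 in Allo-AT5 S4 minus TQ27, where the difference of Ta.3807.1.A1_at ranged from -2.15 to -1.14. Over all 9 comparisons it ranged from -3.03 to -1.14 without single arrays, and from -2.66 to -1.45 after cyclic loess. Arrays with the same replicate number deviated together in some groups and not in others (r from -0.31 to 0.85 over 36 pairs of groups, 18 over 0.1). In TTR04, TTH01, MPV5, MPV9 and both generations of Allo-AT9 all 15 pairs had r of 0.34 to 0.85, and replicate 1 was in the high spike-in band in all 6 groups. TQ27 gave r of -0.31 to -0.09 with these groups, so no pairing by replicate number held over the whole design. In TQ27 the bands were the other way round, with replicate 1 in the low band and replicate 2 in the high band. Whether arrays deviated together by band was not tested. With the number as a block, the replicate block, 1 rbcl probe set was called in each of the same 9 comparisons and 0 in the others, with Ta.3807.1.A1_at at an adjusted p of up to 0.00492. Some differences of uncalled probe sets from TQ27 turned their sign, and the cause was not tested. For Ta.24976.1.S1_x_at, TTH01 minus TQ27 was -0.0003764 after cyclic loess and -0.0182 after quantile normalization, and the 6 groups minus TQ27 was -0.0091 after quantile normalization. Without single arrays these 2 differences ranged from -0.021 to 0.256 and from -0.0139 to 0.263. For TaAffx.128414.130.S1_at, TTR04 minus TQ27 ranged from -0.27 to 0.894 and the 6 groups from -0.12 to 1.04. For TaAffx.128414.146.S1_at they ranged from -0.0118 to 0.930 and from -0.0785 to 0.864. The negative ends were without TQ27 replicate 2. The gap between measured and computed mixture in Ta.3807.1.A1_at, with alternatives chosen after seeing the data, ranged from -1.01 to -0.57 in MPV5 and from -0.84 to -0.56 in MPV9. The number of arrays limits the precision, with 95% intervals of TaAffx.128414.130.S1_at reaching from -1.96 to 2.36.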

Other observations

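The stem TaAffx.128414 names 59 probe sets of the array, of which 35 carry no gene symbol, so what they measure is not named here. Of these 35, 13 were detected in at least 1 group, with mean levels from 4.77 to 13.28. TQ27 replicate 2 was the lowest array for 7 of the 13. The 2 examples that follow were chosen after their values were seen. TaAffx.128414.215.S1_s_at gave 12.31 on TQ27 replicate 1 and 10.10 on TQ27 replicate 2, with a median of 12.65 over the 18 arrays, and TaAffx.128414.176.S1_x_at gave 11.19 and 9.05, with a median of 11.1. Both were thus lower on the array with the high 18S rRNA control than on any other array. Of the 13, 1 was called in TTR04 minus TQ27, 2 in TTH01 minus TQ27 and 2 in the mean of the 6 groups with a T. turgidum mother minus TQ27, beside 35.1%, 34.5% and 36.4% of all detected probe sets.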
